A study of Mus musculus with 6 samples.

Results

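The genes of glycolysis and of the cellular response to low oxygen were followed in PA6 stromal cells exposed for 3 h to FGF2 or BMP4. The set held 38 genes chosen by symbol: glucose and lactate transporters, the enzymes from hexokinase to lactate dehydrogenase, regulators of phosphofructokinase and pyruvate dehydrogenase, the hypoxia-inducible factor HIF1A with its prolyl hydroxylases and several of its targets, 4 enzymes of the pentose phosphate pathway, and heme oxygenase. Of these, 36 had at least 1 probe among the 45281 probes of the array and 28 had a detected probe and entered the tests, out of 11872 genes tested. HK2 and LDHB were not analysed here.

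PA6 is a murine stromal line that supports the differentiation of embryonic stem cells seeded on it, and here it was grown alone to confluence in 6-well plates. Serum-free medium was given alone (-GFs), with 20 ng/ml recombinant FGF2, or with 10 ng/ml recombinant BMP4 as the labels give it. Each of 2 biological replicates supplied 1 well to each group, so that the 6 arrays formed 2 sets of 3, and no other treatment, transgene or cell type was part of these cultures. The line stands for 1 stromal background, and the p-values below measure the spread between these arrays only.

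In glycolysis, glucose that enters through transporters such as SLC2A1 is phosphorylated and cleaved to pyruvate, and lactate dehydrogenase turns pyruvate into lactate when it is not passed to the mitochondria. HIF1A is a transcription factor whose protein is hydroxylated by the EGLN enzymes and then degraded while oxygen is present, and its stabilised form raises transcription of glucose transporters, most glycolytic enzymes, BNIP3, ADM and CAR9. This control acts mainly on the protein, so the HIF1A transcript is not a readout of HIF activity. The pentose phosphate pathway branches off at glucose-6-phosphate and supplies NADPH and ribose. Oxygen was not varied in these cultures, and transcripts alone were measured, without enzyme levels, lactate or flux.

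Bead arrays measured each transcript as the brightness of its probe, and a detection p compared each probe with the negative controls of its array. Between 15509 and 16459 probes were detected per array at a detection p under 0.05, and median intensity lay between 153.4 and 168.1. All levels below are log2 intensities after cubic spline normalization, where a difference of 1 is a 2-fold change, and each gene was read from its brightest probe. The stromal markers were all detected. Markers of endothelial cells (PECAM1, CDH5, TIE1, ICAM2), of blood cells (PTPRC, CD68, ITGAM, LAPTM5, CD3E) and of pluripotent cells (NANOG, ZFP42, SOX2) were detected on no array. Other markers on the same lists were detected: TEK on 6 arrays and KDR on 4 (endothelial), CD14 on 6 (blood), and POU5F1 on 6 and DPPA5 on 3 (pluripotent). In RNA of a whole culture, fewer cells of a kind and less RNA per cell cannot be told apart.

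The first separation among the genes was between those that were measured and those at background. PFKFB3, ALDOC, SLC16A1, PDK1, BNIP3, EGLN3, CAR9 and ANKRD37 were not detected on any of the 6 arrays, and their 13 probes read between 102.6 and 190.2. The closest to detection was PDK1, the kinase that holds pyruvate dehydrogenase inactive, with a lowest detection p of 0.0513. Several of these genes, among them CAR9 (carbonic anhydrase 9), EGLN3, BNIP3, ANKRD37 and PDK1, are HIF targets in many cells. A probe at background sets no level for its transcript, and treated and untreated arrays did not differ in this respect. The monocarboxylate transporter SLC16A3, which exports lactate, lay close to background and was detected on 5 arrays, among them 1 of the 2 -GFs arrays. The other 27 tested genes were detected on all 6 arrays.

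**Figure D1:**
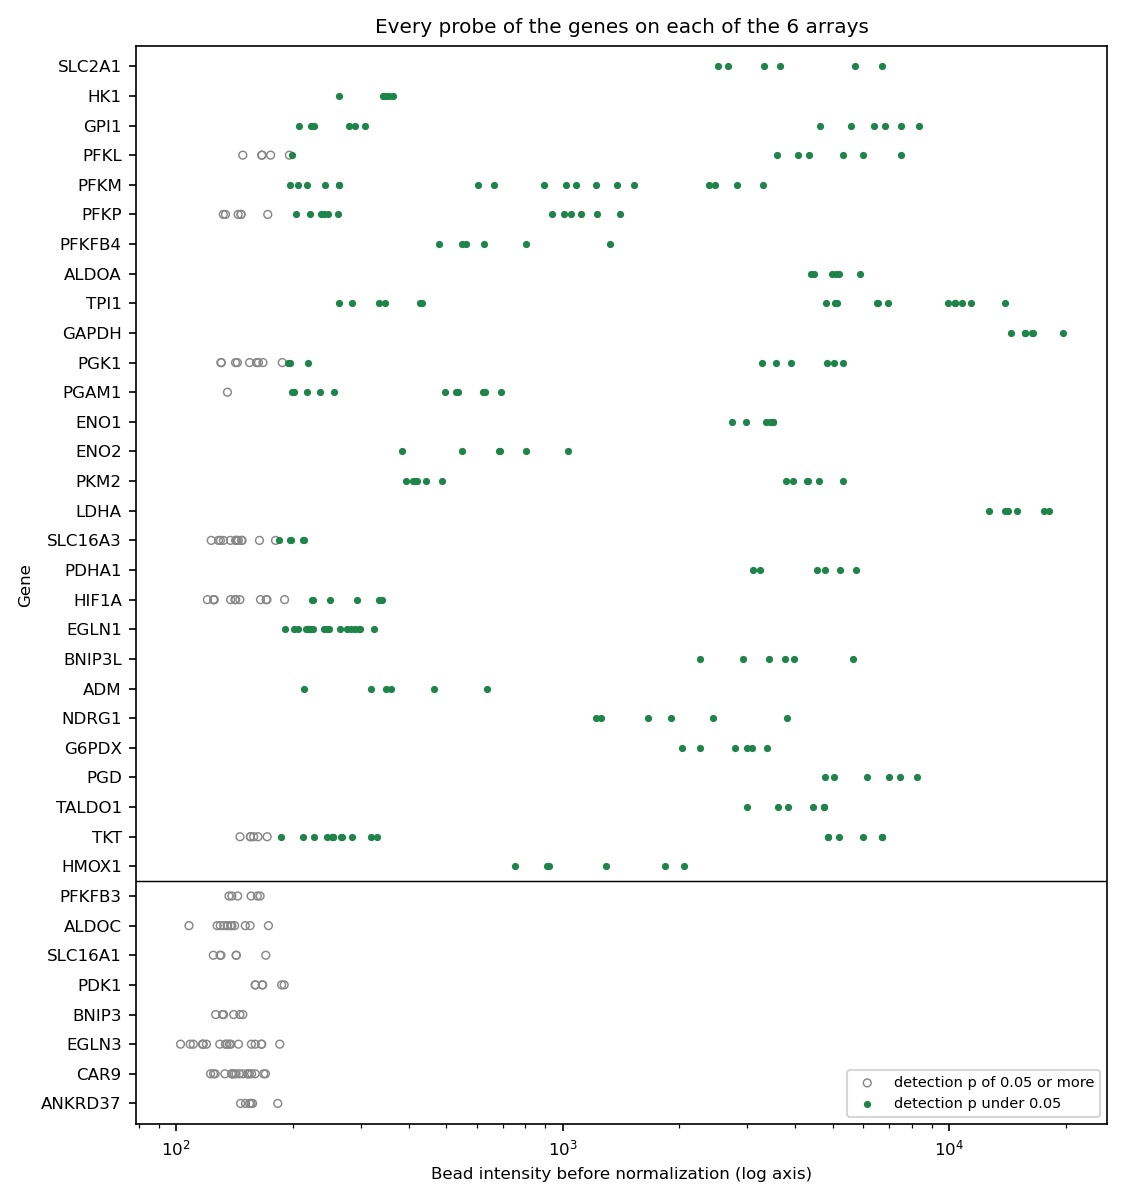
Bead intensity before normalization (log axis) of every probe of the genes on each of the 6 arrays, 1 point per probe and array, filled where the detection p was under 0.05. The 8 genes under the line had no filled point, and their probes lay between 102.6 and 190.2.

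With FGF2, the glucose transporter SLC2A1 and the regulatory enzyme PFKFB4 rose, and the phosphofructokinase subunit PFKM, the vasoactive peptide ADM and the pentose phosphate enzyme PGD fell. By limma across all genes at an adjusted p under 0.1, 2 of 28 genes (7.14%) were higher, where 6.03% of all tested genes were higher, and 3 of 28 (10.7%) were lower, where 5.78% of all were lower. In either direction 5 of 28 (17.9%) passed, against 11.8% of all genes. As many differences were positive as negative, 14 each, with a median of -0.01, beside -0.02 over all tested genes. The median difference in absolute size was 0.32, beside 0.24 over all genes. In 16 of 28 genes the FGF2 and -GFs arrays did not overlap, as in 53.7% of all genes, so a lack of overlap is no mark of these genes. No gene also passed the study's fold threshold of an absolute log2 difference over 1, which 3.53% of all genes did, and 10 of 28 had an unadjusted p under 0.05 (23.3% of all genes). The methods' t-test, after adjustment, called 0 of them and 0 of all 11872 genes.

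Arrays with the same replicate number came from the same biological replicate, and a fit with that number as a block called 7 genes higher and 7 lower, 14 of 28 (50%), where 37.7% of all genes passed (18.1% higher, 19.6% lower). None of the 14 was past the fold threshold, as 3.95% of all genes were. The calls without the block rested on few arrays, for these genes as for all genes. No gene of the set passed without -GFs replicate 1, without FGF2 replicate 1 or without FGF2 replicate 2, where 5.65%, 1.51% and 0.868% of all genes passed. SLC2A1 alone passed without -GFs replicate 2 (5.08% of all genes), where the spread of the lone array was taken from the other groups. Without either BMP4 array, SLC2A1, PFKM and ADM passed (9.91% of all genes). Scaling each array to its median in place of the spline left SLC2A1 as the 1 higher gene and gave 4 lower ones, and over all genes the split moved from 716 higher and 686 lower to 502 higher and 910 lower.

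**Figure D2:**
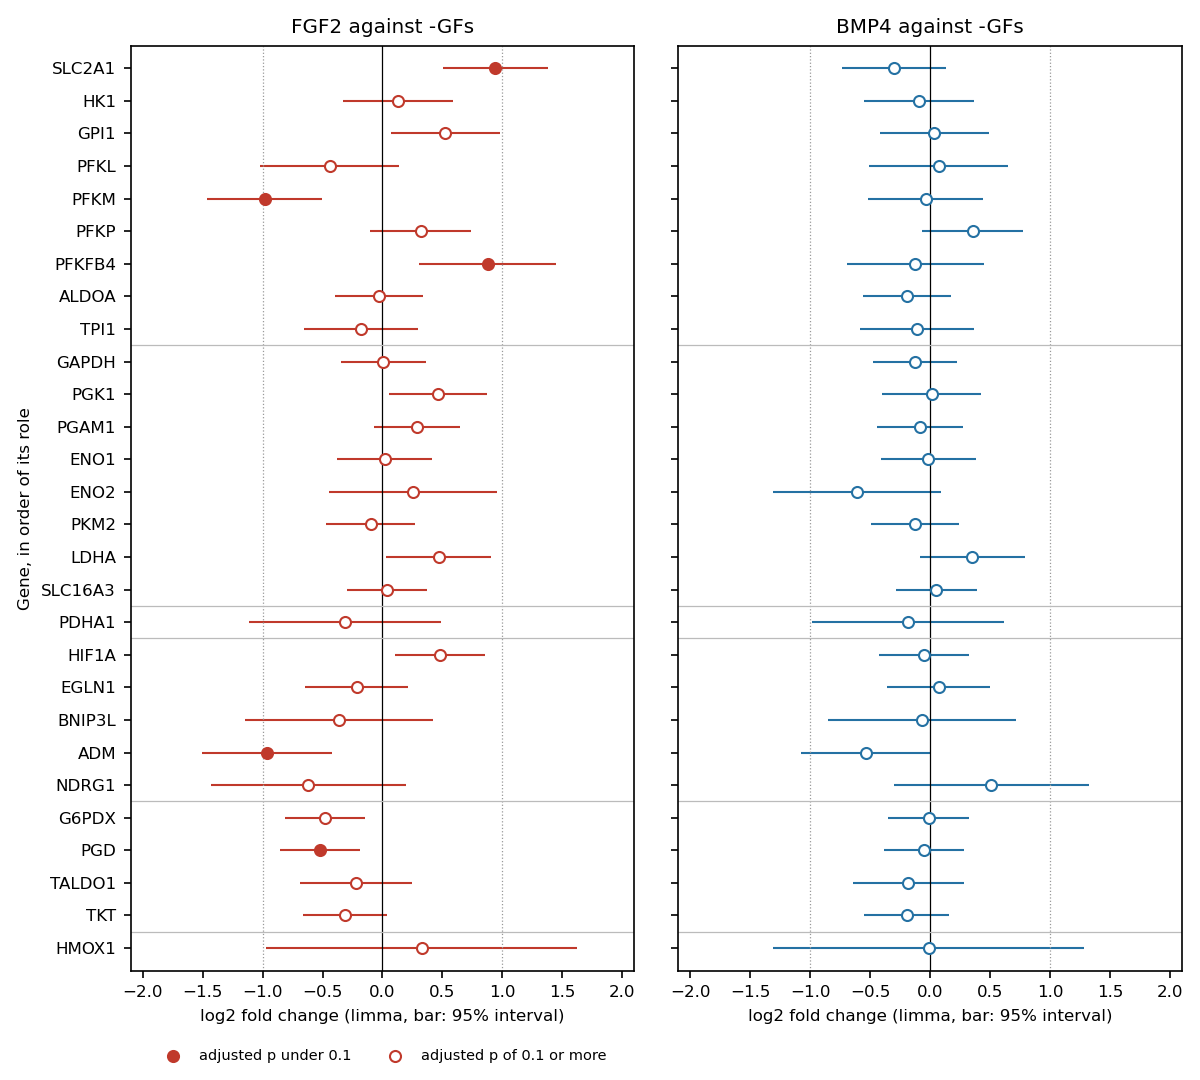
Log2 fold changes with 95% intervals from limma (n = 2 arrays per group) for the 28 tested genes in order of their roles, FGF2 against -GFs on the left and BMP4 against -GFs on the right, with dotted lines at an absolute difference of 1. The 5 filled points with FGF2 are SLC2A1, PFKFB4, PFKM, ADM and PGD, and no point is filled with BMP4.

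SLC2A1 is the facilitative glucose transporter GLUT1, the entry point of glucose in most cultured cells. Its level was 11.51 and 11.88 on the -GFs arrays, 12.51 and 12.76 with FGF2, and 11.45 and 11.33 with BMP4. Both FGF2 arrays lay above the 4 others, and both BMP4 arrays lay below the -GFs arrays. With FGF2 it rose by 0.94 (SE 0.18, 95% interval 0.50 to 1.38), 1.92-fold, with an adjusted p of 0.0348 by limma. The rise was 1.002 in replicate 1 and 0.88 in replicate 2.

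PFKFB4 is one of the bifunctional enzymes that set the level of fructose-2,6-bisphosphate, an activator of phosphofructokinase, and its gene is a HIF target in many cells. It measured 9.09 and 9.23 without growth factors, 10.36 and 9.71 with FGF2, and 9.18 and 8.89 with BMP4. The FGF2 arrays were again the highest of the 6, but they differed from each other by more than the arrays of either other group. The rise with FGF2 was 0.88 (SE 0.24, 95% interval 0.30 to 1.45; 1.84-fold, adjusted p = 0.0853), made up of 1.28 in replicate 1 and 0.48 in replicate 2. The call was lost under neqc (adjusted p = 0.114), median scaling (0.124) and a fit of the 2 groups alone (0.102). Its relative PFKFB3 was at background on all 6 arrays.

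The stretch of 250 bases before the transcription start is shown for both risen genes, with the core of the element that HIF binds marked. Capitals mark ACGTG or GCGTG on either strand, so that GCGTG on the reverse strand reads as CACGC. The sequences are those of RefSeq on GRCm38.p6, at chr4:119108495-119108744 for Slc2a1 and chr9:108991652-108991901 for Pfkfb4, both on the plus strand.
Slc2a1: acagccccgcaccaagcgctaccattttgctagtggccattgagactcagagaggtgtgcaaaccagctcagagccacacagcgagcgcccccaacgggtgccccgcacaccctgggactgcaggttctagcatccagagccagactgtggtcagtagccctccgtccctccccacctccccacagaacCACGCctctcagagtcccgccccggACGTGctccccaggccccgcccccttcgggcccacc
Pfkfb4: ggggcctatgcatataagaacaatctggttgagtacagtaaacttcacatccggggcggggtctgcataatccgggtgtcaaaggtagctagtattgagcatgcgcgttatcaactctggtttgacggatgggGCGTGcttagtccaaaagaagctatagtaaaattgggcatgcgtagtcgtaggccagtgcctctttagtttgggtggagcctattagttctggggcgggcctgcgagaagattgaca
The Slc2a1 stretch held 2 matches, whose first bases lay at -61 and -36 from the start, and the Pfkfb4 stretch held 1, at -117. A match is a description of the letters, and 38.6% of the 32851 such stretches of all genes hold at least 1. Among the 35 genes of the set with such a stretch, 32 had at least 1 match, and HIF binding was not tested.

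Phosphofructokinase catalyses the committed step of glycolysis and is built from muscle (PFKM), liver (PFKL) and platelet (PFKP) subunits. PFKM read 11.51 and 11.34 on the -GFs arrays, 10.58 and 10.31 with FGF2, and 11.62 and 11.16 with BMP4. Both FGF2 arrays were below the other 4, without overlap. PFKM fell by 0.98 (SE 0.20, 95% interval -1.46 to -0.50; a fold of 0.506, adjusted p = 0.0399), with -0.93 in replicate 1 and -1.03 in replicate 2. Its other 2 detected probes had differences of -0.82 and -0.30.

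For PFKL the difference with FGF2 was -0.44 (SE 0.24, adjusted p = 0.330), and for PFKP it was 0.32 (SE 0.18, adjusted p = 0.333). With the replicate block these passed, with adjusted p of 0.0250 for PFKL and 0.0939 for PFKP. PFKM was the one subunit that passed under both fits. The hexokinase HK1, which phosphorylates glucose on entry, read between 8.10 and 8.59 over the 6 arrays, with a difference of 0.13 (95% interval -0.33 to 0.58). GPI1, which converts glucose-6-phosphate to fructose-6-phosphate, measured 12.28 and 12.66 without growth factors and 12.91 and 13.08 with FGF2, where the groups did not overlap. Its difference of 0.52 had an adjusted p of 0.162, and of 0.00817 with the block. Aldolase ALDOA and the triose isomerase TPI1 had differences of -0.03 and -0.18, with adjusted p of 0.930 and 0.647. The upper part of the pathway held 5 positive and 4 negative differences among 9 genes tested.

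In the lower part of glycolysis no gene passed without the block, where 7 of 8 differences with FGF2 were positive. Those of GAPDH, ENO1, ENO2 and SLC16A3 changed sign in some settings. ENO2 fell to -0.08 with 1 array left out and no block, but its replicate pairs were 0.19 and 0.32. The pairs of GAPDH, ENO1 and SLC16A3 differed in sign. Glyceraldehyde-3-phosphate dehydrogenase GAPDH, often taken as a reference transcript, read 14.06 and 14.01, then 14.08 and 14.003 with FGF2, and 14.01 and 13.81 with BMP4. The interval of its difference with FGF2 ran from -0.35 to 0.36 around 0.01. ENO1, the main enolase outside nerve and muscle, differed by 0.02 (-0.38 to 0.42), and PKM2, listed under the name of the M2 form of pyruvate kinase, by -0.10.

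Phosphoglycerate kinase PGK1 and lactate dehydrogenase LDHA are classical HIF targets. PGK1 read 12.09 and 11.73 without growth factors, 12.42 and 12.32 with FGF2 and 11.97 and 11.87 with BMP4. LDHA read 13.45 and 13.80, then 13.94 and 14.24 with FGF2, and 13.95 and 13.999 with BMP4. For both genes the FGF2 arrays lay above the -GFs arrays, and for LDHA the BMP4 arrays did as well. The differences with FGF2 were 0.46 for PGK1 (SE 0.17, adjusted p = 0.168) and 0.47 for LDHA (SE 0.18, adjusted p = 0.187). With the block they had adjusted p of 0.0191 and 0.0182. The phosphoglycerate mutase PGAM1 had a difference of 0.28 (adjusted p = 0.310, and 0.133 with the block). SLC16A3 differed by 0.04.

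Many of these enzymes, GAPDH, LDHA, PGK1, ENO1, TPI1 and ALDOA among them, have processed pseudogenes close to them in sequence. Probe sequences were not used here, so a share of signal from such copies was not tested. Of the 9 genes with more than 1 detected probe, 6 had the same sign with FGF2 in all of them. The exceptions were PKM2, with -0.10 and 0.08, TKT, with -0.31, -0.21 and 0.22, and EGLN1, with -0.21, 0.04 and -0.20. PDHA1, the catalytic subunit through which pyruvate enters the citrate cycle, differed by -0.31 with FGF2 (SE 0.34, adjusted p = 0.635), and its replicate 2 arrays of both treated groups were the lowest of the 6.

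HIF1A itself read 8.04 and 7.88 without growth factors, 8.41 and 8.46 with FGF2, and 8.03 and 7.78 with BMP4. The FGF2 arrays lay above the 4 others. Its difference of 0.48 (SE 0.16, 95% interval 0.10 to 0.85) had an adjusted p of 0.128 without the block and 0.0154 with it. HIF1A was read from a dim probe, between 224.3 and 341.4 before normalization, and the other HIF1A probes were detected on no array. EGLN1, the main oxygen-sensing prolyl hydroxylase, the mitophagy receptor BNIP3L, ADM and the stress-responsive NDRG1 had negative differences with FGF2, from -0.21 to -0.96, and ADM alone of them passed without the block. The HIF targets SLC2A1, PFKFB4, PGK1 and LDHA had positive ones, and so did HMOX1, whose replicates differed in sign. Of the glycolytic genes, 5 of 9 in the upper part and 7 of 8 in the lower part were positive with FGF2. PFKL, PFKM, ALDOA, TPI1 and PKM2 were negative.

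ADM encodes adrenomedullin, a vasodilator peptide and one of the transcripts most readily raised by low oxygen. It read 9.11 and 8.95 on the -GFs arrays, 7.74 and 8.39 with FGF2, and 8.51 and 8.49 with BMP4. Both treated groups lay below the -GFs group, and the FGF2 arrays were the lowest. The fall with FGF2 was -0.96 (SE 0.23, 95% interval -1.504 to -0.42; a fold of 0.513, adjusted p = 0.0581), with -1.37 in replicate 1 and -0.56 in replicate 2. On FGF2 replicate 1 the probe was dim, at 213.8 before normalization with a detection p of 0.0128. Under neqc the fall was -1.58, so its size is uncertain. The stretch before the start of Adm, at chr7:110627407-110627656 on the plus strand of GRCm38.p6 from RefSeq, is given with the same core in capitals.
Adm: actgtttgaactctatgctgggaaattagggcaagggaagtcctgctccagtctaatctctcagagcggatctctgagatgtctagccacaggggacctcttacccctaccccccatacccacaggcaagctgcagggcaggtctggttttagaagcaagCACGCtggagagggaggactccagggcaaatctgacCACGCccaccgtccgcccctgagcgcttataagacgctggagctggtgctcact
It held 2 matches, with first bases at -90 and -54.

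NDRG1 showed how much the replicate number mattered. The levels were 10.51 and 11.33 without growth factors, 10.25 and 10.36 with FGF2, and 11.02 and 11.84 with BMP4. The FGF2 arrays were the lowest, and the -GFs and BMP4 arrays each spread over more than the difference between their group means. Its difference with FGF2 was -0.62 (SE 0.34, adjusted p = 0.332), and with the block the adjusted p was 0.00927. BNIP3L, at -0.36, passed with the block alone (adjusted p = 0.569 without it and 0.0689 with it). EGLN1 passed in neither fit.

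All 4 pentose phosphate genes had negative differences with FGF2, with a median of -0.39. PGD, 6-phosphogluconate dehydrogenase, is the second NADPH-producing enzyme of the oxidative branch. It read 12.84 and 12.79 without growth factors, 12.34 and 12.24 with FGF2, and 12.77 and 12.76 with BMP4. The spread within each group was small, and the FGF2 arrays stood apart from the 4 others. PGD fell by 0.52 (SE 0.14, 95% interval -0.86 to -0.19; a fold of 0.696, adjusted p = 0.0796), with -0.50 and -0.55 in the replicates. The call was lost under neqc (adjusted p = 0.162) and a fit of the 2 groups alone (0.123).

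G6PDX, glucose-6-phosphate dehydrogenase, opens the same branch and had the same pattern, at 11.54 and 11.61, then 11.14 and 11.06 with FGF2, and 11.60 and 11.52 with BMP4. Its difference of -0.48 (SE 0.14) had an adjusted p of 0.102, just above the threshold, and of 0.0141 with the block. In the non-oxidative branch, transaldolase TALDO1 and transketolase TKT had differences of -0.22 and -0.31 and passed in neither fit, with adjusted p of 0.555 and 0.264.

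**Figure D3:**
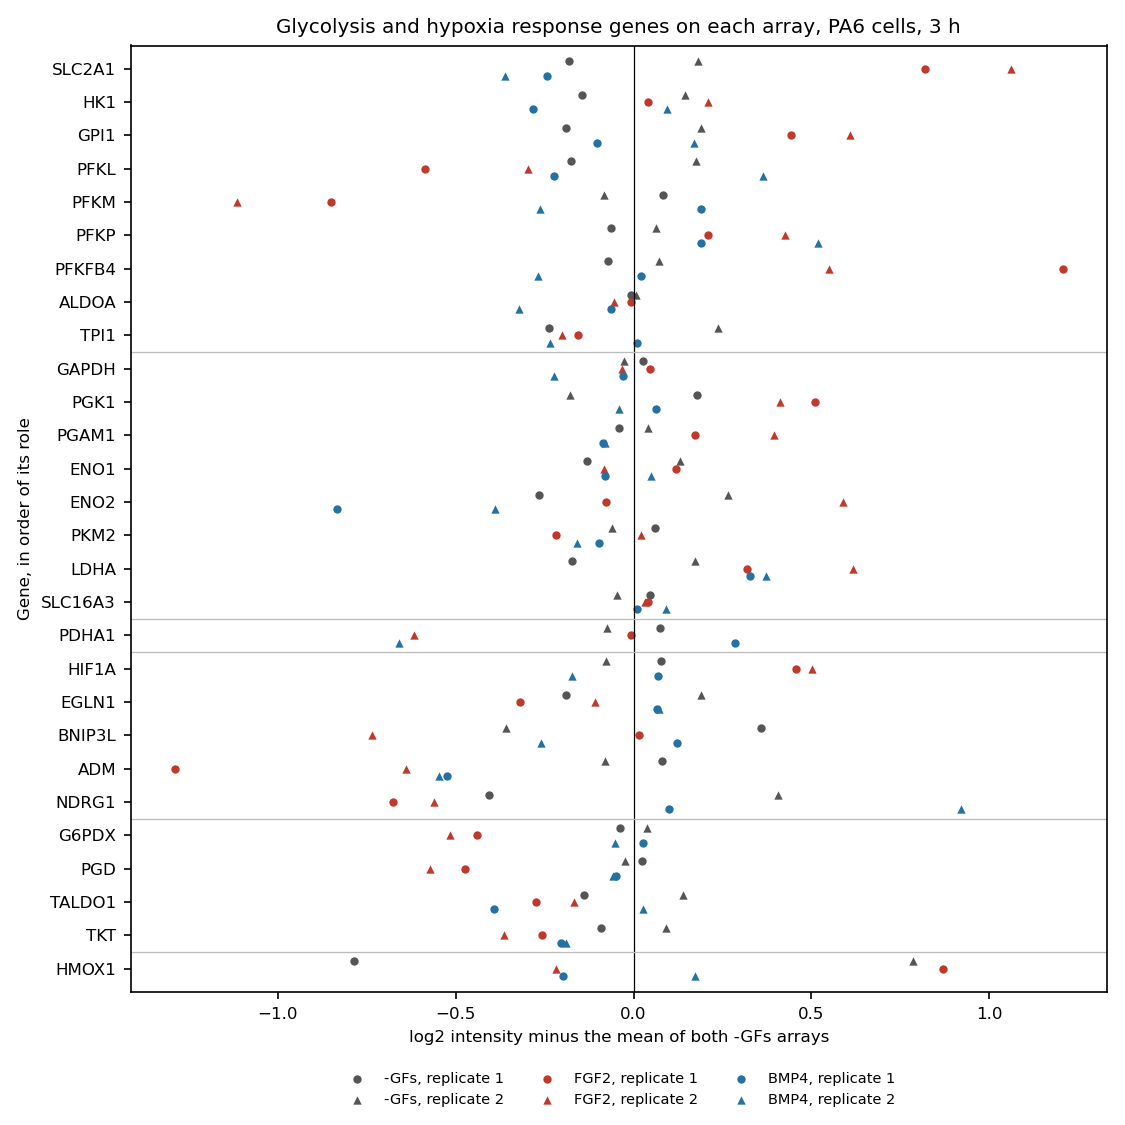
Log2 intensity of each tested gene on each of the 6 arrays, set against the mean of its 2 -GFs arrays and ordered by role, with circles for replicate 1 and triangles for replicate 2. The FGF2 points of SLC2A1, PFKFB4, GPI1, HIF1A, PGK1 and PGAM1 lie to the right of all other points of their rows, and those of PFKM, PFKL, ADM, NDRG1, G6PDX, PGD and TKT to the left.

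Heme oxygenase HMOX1, which degrades heme and answers to oxidative stress as well as to HIF, had the widest gap between replicates. It read 9.34 and 10.92 without growth factors, 10.9997 and 9.91 with FGF2, and 9.93 and 10.30 with BMP4. Its difference with FGF2 was 1.66 in replicate 1 and -1.004 in replicate 2, and the interval of the mean difference, 0.33, ran from -0.97 to 1.62. The other genes were closer between replicates, and 21 of 28 had the same sign in both pairs, beside 73.8% of all tested genes. Several genes followed the replicate number across the groups: the mean of replicate 2 minus replicate 1 was -0.62 for BNIP3L, -0.57 for PDHA1, 0.58 for NDRG1, 0.55 for the enolase ENO2 and 0.41 for PFKL. The adipocyte markers CFD, LPL and CEBPA were also higher on the replicate 2 array of every group. PPARG and LEP did not follow this order in every group. From replicate 1 to 2, PPARG read 11.16 and 11.14 without growth factors. LEP read 7.94 and 7.89 with FGF2, and 7.72 and 7.65 with BMP4. Summed over the 10 adipocyte markers, of which FABP4, CD36 and RETN were undetected, the lower and upper array read 4234 and 7850 without growth factors, 4150 and 7564 with FGF2, and 4514 and 8739 with BMP4. The part of this shift in the values of NDRG1 and ENO2 was not tested.

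**Figure D4:**
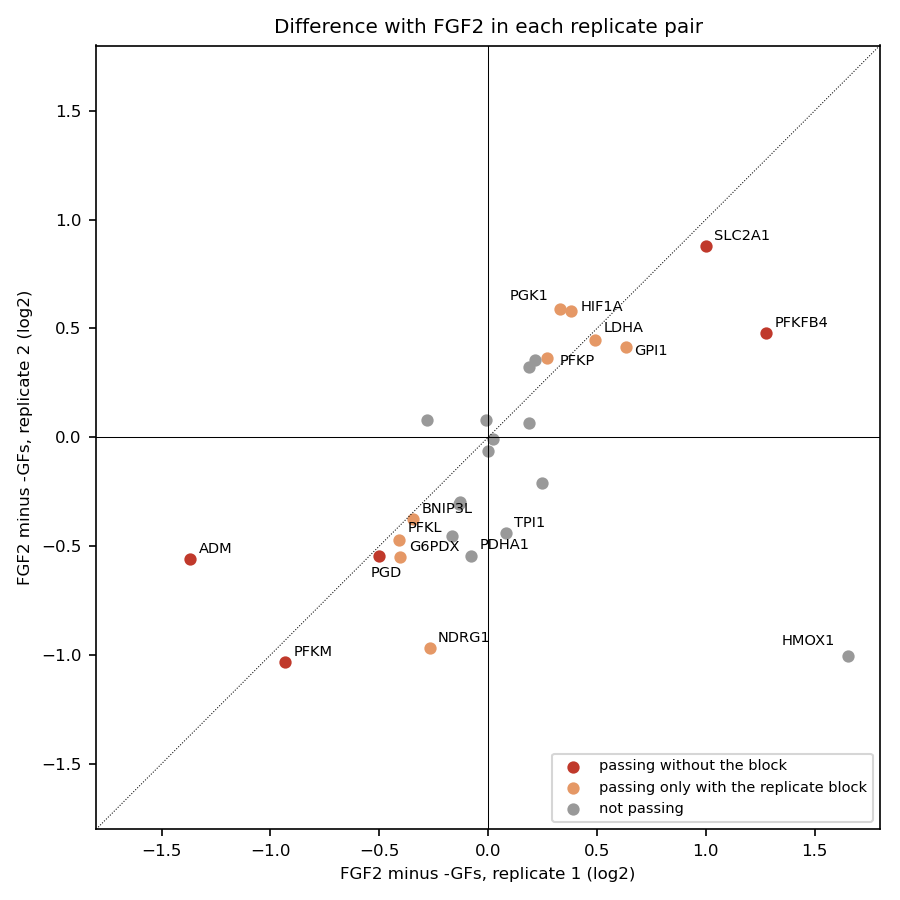
FGF2 minus -GFs (log2) in replicate 1 (x axis) against replicate 2 (y axis) for the 28 tested genes, coloured by whether they passed without the replicate block, with it alone, or not at all. Genes near the dotted diagonal moved alike in both replicates, and HMOX1, at 1.66 and -1.004, lies farthest from it.

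With BMP4 no gene of the set passed. By limma 0 of 28 had an adjusted p under 0.1 and 0 had an unadjusted p under 0.05, where 0.00842% of all tested genes passed the first and 1.81% the second. With the replicate block the count stayed at 0 (0.219% of all genes), with 5 genes at an unadjusted p under 0.05 (7.02% of all genes). The methods' t-test gave 1 of 28 genes at an unadjusted p under 0.05, ADM, beside 432 of all 11872 genes. After Benjamini-Hochberg adjustment it gave 0, beside 1 of all genes. The 28 differences, 8 positive and 20 negative, had a median of -0.06, beside 0.00 over all genes, of which 50.4% were positive. In 11 of 28 genes the BMP4 and -GFs arrays did not overlap, beside 24% of all genes. The median absolute size of the 28 differences was 0.10, beside 0.11 over all genes, and they ran from -0.61 to 0.51.

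The ends of that range were ENO2, the neuronal form of enolase, and NDRG1. ENO2 read 9.21 and 9.75 without growth factors and 8.65 and 9.09 with BMP4, where the BMP4 arrays were the lowest of the 6. Its difference was -0.61 (95% interval -1.31 to 0.09), with -0.57 and -0.66 in the replicates. ADM was lower on both BMP4 arrays than on either -GFs array, with a difference of -0.54 (95% interval -1.08 to 0.00; -0.60 and -0.47 in the replicates). Further values of moderate size that did not pass were PFKP at 0.35 (-0.07 to 0.77), LDHA at 0.35 (-0.09 to 0.79) and SLC2A1 at -0.30 (-0.74 to 0.13). These intervals leave room for changes of the size that FGF2 gave in several genes, so a miss does not show that BMP4 left the genes as they were.

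Set directly against each other, the FGF2 and BMP4 arrays differed in 3 of 28 genes (10.7%), where 9.06% of all tested genes differed. SLC2A1 and PFKFB4 were higher with FGF2 (4.84% of all genes were) and PFKM was lower (4.22%). The difference was 1.24 for SLC2A1 (SE 0.18, adjusted p = 0.0192; 2.37-fold), 1.001 for PFKFB4 (SE 0.24, adjusted p = 0.0698) and -0.95 for PFKM (SE 0.20, adjusted p = 0.0507). SLC2A1 and PFKFB4 also passed the fold threshold of 1, which 3.07% of all genes did. Comparisons that share the same FGF2 arrays are not independent of each other.

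With the replicate block 13 genes differed between the treatments (34.1% of all genes did), 7 higher and 6 lower with FGF2 (16.3% and 17.8% of all genes). Past the fold threshold as well were SLC2A1, PFKFB4 and NDRG1, beside 3.51% of all genes. NDRG1 had the largest negative value, -1.13 (SE 0.34, adjusted p = 0.122, and 7.5e-05 with the block), made up of -0.78 and -1.48 in the replicates. ENO2 was higher with FGF2 than with BMP4 by 0.87 (adjusted p = 0.156, and 0.000165 with the block). For ADM, which was low in both treated groups, the difference was -0.43 with an adjusted p of 0.339, and of 0.0740 with the block. The pentose phosphate genes PGD and G6PDX differed by -0.47 and -0.46, with adjusted p of 0.116 and 0.122, and of 0.0167 and 0.0187 with the block. HIF1A and GPI1 differed by 0.53 and 0.49, and passed with the block alone (adjusted p of 0.00941 and 0.0138).

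**Figure D5:**
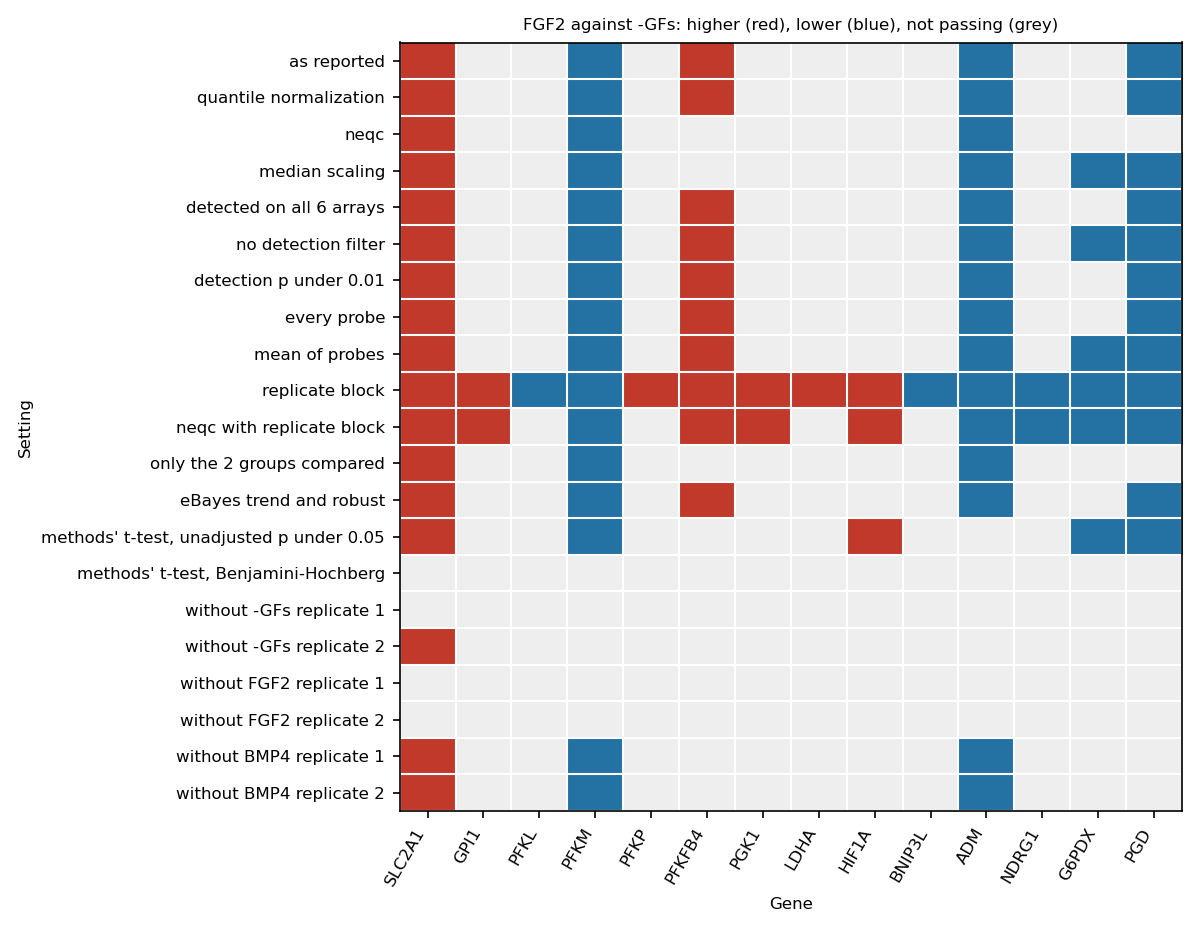
Outcome for FGF2 against -GFs of the 14 genes that passed under any processing setting, 1 row per setting, red where higher, blue where lower and grey where not passing. SLC2A1 passed in 16 of the 20 settings with adjusted p, PFKM and ADM in 15, PGD in 11 and PFKFB4 in 10, and the row for the replicate block has all 14 genes coloured.

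Across the set, HIF core letters before the start were common among genes that moved either way and among those that did not. Stretches of 250 bases were found for 35 of the 38 genes in the RefSeq table, 49 in all, since some genes have several starts. BNIP3L, NDRG1 and HMOX1 had none in that table. ACGTG or GCGTG on either strand stood in 40 of the 49 (81.6%), belonging to 32 genes, beside 38.6% of the stretches of all genes. The stretches of these genes were also richer in G and C, with a median of 60.4% beside 52.4%, and the motif letters hold both bases. The set was also named in part for known HIF targets. The part of either in the share of matches was not tested. LDHA had 5 matches in 1 stretch, and undetected BNIP3 had 5 as well. A CACGTG counts on both strands, and it stood 2 times in the LDHA stretch and 1 time in that of BNIP3. No match was found for GPI1, TPI1 and ENO2, which says only that these letters are not in these windows.

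The wider pathways were read from further lists, whose counts stand beside the shares of all tested genes given above for FGF2 (6.03% higher and 5.78% lower, and 18.1% and 19.6% with the block). Of 17 other tested genes of glycolysis and pyruvate metabolism, 1 was higher with FGF2 and none lower (limma, adjusted p under 0.1), with a median of -0.11. The 1 gene was the pyruvate dehydrogenase phosphatase listed as PPM2C (1.18, adjusted p = 0.0158), whose product reverses the inhibition by the PDK enzymes. With the replicate block 2 were higher and 3 lower.

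Of 22 other HIF regulators and hypoxia targets, 3 were higher and 2 lower, and with the block 3 and 5. The higher ones were the transcriptional repressor BHLHB2 (2.49, adjusted p = 0.00459), the transferrin receptor TFRC (1.29, adjusted p = 0.0114) and the angiogenic factor VEGFA (1.29, adjusted p = 0.0115). The lower ones were DDIT4, an inhibitor of mTORC1 (-1.42, adjusted p = 0.00777), and CITED2, which competes with HIF1A for its co-activators (-0.998, adjusted p = 0.0341). The median of this list was -0.08. Genes known as HIF targets passed in both directions here, as they did among SLC2A1, PFKFB4 and ADM, and HIF activity was not measured.

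In the pentose phosphate list, the ribose-5-phosphate isomerase RPIA rose (0.90, adjusted p = 0.0371), the 1 call among 7 other genes, opposite in sign to PGD. With the block 2 of the 7 were higher and 2 lower, the lower ones being RPE (-0.65, adjusted p = 0.00278) and PRPS2 (-0.40, adjusted p = 0.0341). Of 13 other targets of NRF2, the factor that answers to oxidative stress and also controls PGD and G6PDX, 3 were higher and none lower, and with the block 3 and 1 (SQSTM1, -0.39, adjusted p = 0.0652). The higher ones without the block were sulfiredoxin SRXN1 (1.90, adjusted p = 0.00414), thioredoxin reductase TXNRD1 (0.79, adjusted p = 0.0370) and GCLM of glutathione synthesis (0.66, adjusted p = 0.0796). TXNRD1 was detected on only 3 arrays, and it read 8.47 and 8.24 with FGF2. Its -GFs and BMP4 arrays read at most 7.63, close to background, so the size of its rise is uncertain. Of 25 genes of the citrate cycle and respiratory chain, the electron carrier cytochrome c, CYCS, rose (0.95, adjusted p = 0.0270), and with the block 3 were higher and 7 lower. With BMP4 no gene of these lists passed in either fit. Among 9 genes often used as references, TFRC, HPRT1 (0.74) and YWHAZ (0.68) were higher with FGF2 and 4 were with the block. TBP differed by 0.68 (adjusted p = 0.127, and 0.00483 with the block). The median of these genes was 0.29, and PPIA, B2M and ACTB had differences of -0.02, 0.08 and 0.29.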

How the data were processed

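Total RNA of 6 PA6 cultures was labelled and hybridised to Illumina mouse bead arrays. The authors exported the deposited non-normalized table from GenomeStudio 2011.01, which holds for each probe and array a bead intensity (linear, not log) and a detection p-value against negative controls. A further 9 unnamed value columns, filled on 2045 lines, and 6 leftover lines were not used. The members and gene lists were chosen with earlier results of these data known.

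Intensities were cubic spline normalized with 452 quantiles, after the study's methods, and taken to log2. Retained probes had, in at least 1 group, a detection p under 0.05 on both arrays (16111 probes), and the probe with the largest mean stood for its gene (11872 genes, 3140 with more than 1 probe). limma 3.58.1 in R 4.3.3 was fitted to all 6 arrays with 3 groups and 3 residual degrees of freedom, empirical Bayes moderation and Benjamini-Hochberg adjustment over all genes. The alternative fit with the replicate number as a block left 2 residual degrees of freedom. Replicate numbers pair the arrays, because the labels state that each biological replicate gave 1 well to every group, and deviations from group means correlated between same-numbered arrays at 0.602 (FGF2 and -GFs), 0.741 (BMP4 and -GFs) and 0.579 (FGF2 and BMP4). An exact two-sided permutation test of 2 arrays against 2 cannot go below p = 0.333, so none is given. Intervals are at 95%. Precision is limited by having 2 arrays in a group. The limma step was tested on simulated data.

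Every gene of the set was accounted for whatever its values, and a gene of a further list was named only among its 3 largest rises or falls past the threshold with FGF2, apart from the reference and marker genes. RPE, PRPS2 and SQSTM1, which passed with the block, fall outside this rule and were chosen after their values were seen. One result of the further lists is not reported here. Alternatives were quantile normalization, neqc, median scaling, other detection filters, other rules for several probes, the block, the 2 groups alone, trended and robust moderation, the methods' t-test, and each array left out. Promoter stretches came from the RefSeq table on GRCm38.p6.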

Additional observations from a re-analysis of the deposited data

How the results depend on the processing

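With FGF2, the 2 higher and 3 lower genes became 7 and 7 with the replicate block and 5 and 5 under neqc with replicate block. They became 0 and 0 once the methods' t-test was adjusted by Benjamini-Hochberg. Over all genes, 11.8% passed in either direction as reported, 37.7% with the block, 32.1% under neqc with it, and 0 after that adjustment. The higher count was 1 under neqc, median scaling and a fit of the 2 groups alone. Over all genes it was 555, 502 and 612 in these settings, beside 716 as reported. Leaving out 1 array gave 0 to 1 higher and 0 to 2 lower genes. The count past both thresholds, 0 as reported, was 2 under neqc, 2 under median scaling and 3 under neqc with replicate block. Of all 11872 genes, 419 were past both as reported, and 795, 417 and 1146 in these settings. With BMP4 the methods' t-test gave 1 gene at unadjusted p, beside 432 of all 11872 genes. All other settings that kept 2 arrays in each group gave 0. Between FGF2 and BMP4 the 3 genes became 13 with the replicate block, 10 under neqc with replicate block, 5 with the t-test at unadjusted p, 0 after adjustment, and 0 to 4 without 1 array. Over 20 settings with adjusted p, the difference with FGF2 ran from 0.76 to 1.12 for SLC2A1, 0.55 to 1.21 for PFKFB4, -1.12 to -0.70 for PFKM, -1.58 to -0.64 for ADM and -0.63 to -0.47 for PGD, with 1 sign each. BNIP3L, called with the block alone at -0.36, was 0.015 without FGF2 replicate 2. That fit had no block, and it set FGF2 replicate 1 against both -GFs arrays, which read 12.30 and 11.58. Within the replicate pairs the BNIP3L differences were -0.34 and -0.38. Leaving out arrays cut the spread estimate to fewer arrays, and the cause of the other shifts was not tested. Probes near background, such as SLC16A3, limit what can be read.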
